A study of Caenorhabditis elegans with 16 samples.

Results

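The genes described here are 8 CUB-like infection response genes of the nematode Caenorhabditis elegans: irg-4, irg-5, dod-17, dod-21, dod-22, dod-24, F55G11.4 and F55G11.8. They were chosen by symbol out of 46904 genes in the deposited table, with their fold changes in these same comparisons already known, so every value given for them is a description and their calls carry no independent support. All 8 symbols were found, and 7 passed the filter on low counts. The exception, dod-21, had 0 counts in all 16 libraries. That these genes encode CUB-like domains comes with the choice and was not checked against protein sequence.

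A CUB-like domain is an extracellular protein fold, and worm proteins that carry it are thought to be secreted or to face the gut lumen. Many of their genes are transcribed in the intestine and are induced when worms meet bacterial pathogens, in part through the p38 MAP kinase pathway that ends in the kinase PMK-1 and the transcription factor ATF-7. The names irg (infection response gene) and dod (downstream of DAF-16) record how the genes were found, the latter through insulin signalling mutants. Reporters of irg-4 and irg-5 are in common use as readouts of this intestinal defence.

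RNA of whole synchronised worms was counted by a 3′ digital mRNA sequencing service in 4 groups of 4 libraries. The genotypes were a control, whose strain the labels do not name, and cua-1(H828Q), which carries an altered copper-transporting ATPase, the worm counterpart of human ATP7A and ATP7B. Sample titles call the mutant ATP7B_m. Each genotype grew for 3 days at 20 °C on agar seeded with Escherichia coli OP50, without added copper or with 100 µM copper chloride. No pathogen was part of the design, and the labels do not give the stage or the number of worms per sample.

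Libraries held 1891008 to 4001750 counts. Of the 16, 5 held few counts of long transcripts: untreated control replicates 1, 3 and 4, copper control replicate 1 and copper mutant replicate 4. Results are therefore also given without these 5 libraries, a fit that leaves the untreated control with 1 library, replicate 2, which is assumed to vary like the others. All 8 genes have transcripts of similar length, between 1101 and 1255 bp. Levels are CPM, counts scaled to library size with TMM factors, with the SD of 4 libraries after ±. Differences are log2 fold changes with the standard error of the edgeR model. With 9787 genes tested, a gene is called higher or lower where its p, adjusted by Benjamini-Hochberg across them, is below 0.05, and "rose" and "fell" are used only of called genes.

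In the genome (build WBcel235, identical to ce11), 6 of the 8 genes lie in a stretch of 41.6 kb on chromosome IV, from 12936738 to 12978343, that holds 13 protein-coding genes. In order they are dod-21 (C32H11.10, 12936738 to 12937988, plus strand), dod-24 (C32H11.12, 12940106 to 12941354, minus strand), F55G11.8 (12962808 to 12964645, plus), dod-22 (F55G11.5, 12965374 to 12967392, plus), F55G11.4 (12973624 to 12975603, plus) and dod-17 (K10D11.1, 12976303 to 12978343, plus). RefSeq lists F55G11.4 under the symbol mbug-1. The gene irg-4 (F08G5.6, 12435833 to 12438236, plus) lies 499 kb before this stretch on chromosome IV. Only irg-5 (F35E12.5, 13737010 to 13738474, minus) lies elsewhere, on chromosome V. Family members can resemble each other in sequence, and how reads matching several genes were counted is not given in the sources used here, so the split of reads between them is uncertain.

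Of the 7 measurable genes, irg-5, dod-24, dod-17, F55G11.8 and irg-4 had their highest mean level in copper-treated mutants, and F55G11.4 had it in copper-treated controls. The gene irg-5 stood at 97.6 ± 21.6 CPM in the mutant on copper against 1.08 ± 0.754 without it, and the other 4 of this group followed with smaller ratios. F55G11.4 stood at 116 ± 3.40 CPM in the control on copper and 27.5 ± 5.42 in the mutant on copper. In dod-22 the copper groups had nearly equal means, 8.63 ± 1.35 CPM in the mutant and 8.59 ± 1.62 in the control, and the libraries of each pair of groups overlapped.

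**Figure D1:**
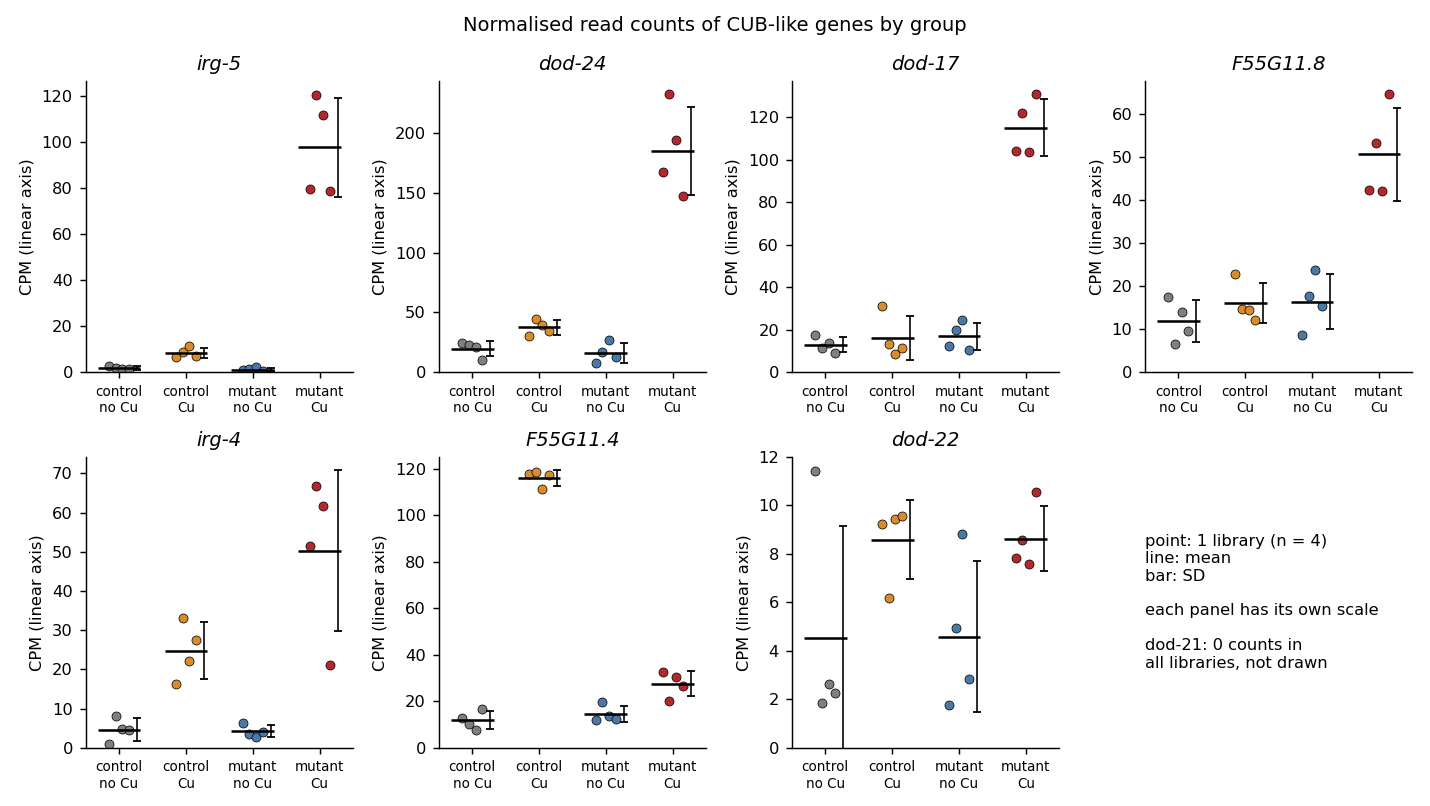
Normalised read counts (CPM, linear axes that differ between panels) of the 7 genes with counts, by genotype and copper. Each point is 1 library (n = 4 per group), the line is the mean and the bar the SD. The copper mutant libraries stand above all others for irg-5, dod-24, dod-17 and F55G11.8, and the copper control libraries do so for F55G11.4.

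The first of these, irg-5, is an infection response gene of the intestine whose basal transcription depends on the p38 pathway. Its levels were 2.74, 1.86, 1.32 and 1.12 CPM in the untreated control libraries and 6.74, 8.53, 11.45 and 6.82 CPM in those on copper. In the mutant they were 0.878, 1.13, 2.07 and 0.256 CPM without copper, a group total of 18 counts, and 79.7, 120, 112 and 78.5 CPM with it. Both untreated groups overlapped, the copper control libraries lay above them, and the copper mutant libraries lay above everything else. Copper raised irg-5 by 2.20 ± 0.41 (log2) in the control and by 6.45 ± 0.41 in the mutant, an 87.6-fold difference that starts from very few counts. On copper the mutant exceeded the control 11.6-fold (log2 3.54 ± 0.34), while without copper the log2 difference was -0.71 ± 0.48 and was not called. The call in the control was lost with limma-voom and in a fit to the 8 libraries of that comparison alone. Without the 5 libraries low in long transcripts the copper responses were 2.17 and 6.54.

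In dod-24, an intestinal gene known from both insulin signalling and infection studies, the untreated levels were 24.7, 22.3, 21.1 and 10.1 CPM in the control and 7.47, 16.9, 27.2 and 12.82 CPM in the mutant. On copper they were 30.5, 44.6, 39.4 and 34.8 CPM in the control and 167, 232, 194 and 147 CPM in the mutant. Copper mutant libraries were all above the rest, and copper control libraries were all above the untreated controls. The copper response was 3.53 ± 0.36 in the mutant, where dod-24 rose. In the control it was 0.92 ± 0.34 and was not called, although the groups did not overlap. Mutant exceeded control on copper by 2.31 ± 0.34 and differed from it by -0.29 ± 0.34 without copper. Leaving out the 5 libraries gave responses of 3.62 in the mutant and 0.77 in the control.

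The last gene of the stretch, dod-17, gave 17.4, 11.48, 13.6 and 8.95 CPM in the untreated control and 31.2, 13.3, 8.42 and 11.36 CPM in the control on copper. The mutant gave 12.3, 19.6, 24.6 and 10.5 CPM without copper and 104, 122.1, 104 and 131 CPM with it. The 4 copper mutant libraries stood apart and the other 12 overlapped. The log2 response to copper was 2.78 ± 0.38 in the mutant and 0.31 ± 0.38 in the control, and only the former was called. The small difference in the control rests on copper control replicate 1, and without that library it was -0.21. Leaving out the 5 libraries gave 2.70 in the mutant and -0.12 in the control. On copper the mutant exceeded the control by 2.84 ± 0.38.

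F55G11.8 behaved in the same order with a smaller range. Its untreated levels were 17.4, 6.52, 14.1 and 9.51 CPM in the control and 8.57, 17.8, 23.8 and 15.4 CPM in the mutant. With copper they were 22.7, 14.7, 14.5 and 12.04 CPM in the control and 42.3, 53.3, 42.0 and 64.7 CPM in the mutant, the only group that did not overlap with another. Copper raised it by 1.62 ± 0.34 in the mutant, and mutant exceeded control on copper by 1.66 ± 0.34. The response in the control, 0.43 ± 0.35, was not called. The call in the mutant was lost without untreated mutant replicate 1 (log2 1.41) and without replicate 4 (1.59). Without the 5 libraries low in long transcripts F55G11.8 was also called higher in the untreated mutant than in the untreated control, by 1.27 in place of 0.47 ± 0.35. The uncalled copper response in the control was then 1.01.

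The second infection response gene, irg-4, moved with copper in both genotypes. Its levels were 0.914, 8.07, 4.83 and 4.48 CPM in the untreated control and 16.3, 33.2, 22.2 and 27.5 CPM in the control on copper. In the mutant they were 6.37, 3.38, 2.85 and 4.10 CPM without copper and 51.6, 66.9, 61.6 and 21.1 CPM with it. Each copper group lay above both untreated groups, while the copper groups overlapped through mutant replicate 4, a library low in long transcripts. Copper raised irg-4 by 2.38 ± 0.47 in the control and by 3.58 ± 0.46 in the mutant. Mutant and control differed by 1.02 ± 0.41 on copper and by -0.17 ± 0.49 without it, neither called. The difference on copper was called without copper mutant replicate 4 (1.27) and without the 5 libraries low in long transcripts (1.11), while that between untreated genotypes was then -0.98 and not called. Its copper response in the control lost the call with limma-voom, in a fit to the libraries of that comparison alone and without copper control replicate 4 (2.33). Without the 5 libraries the responses were 1.72 in the control and 3.81 in the mutant.

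F55G11.4 was the only measurable gene of the 8 with its highest level in copper-treated controls. Untreated libraries held 12.802, 10.2, 7.47 and 16.8 CPM in the control and 12.1, 19.8, 13.7 and 12.57 CPM in the mutant. On copper the control libraries held 118, 118.5, 111 and 117 CPM, and the mutant libraries 32.5, 20.2, 30.5 and 26.5 CPM. The copper control libraries stood apart from all others, and the copper mutant libraries lay between them and the untreated ones without overlap. Copper raised F55G11.4 by 3.30 ± 0.27 in the control, a 9.88-fold difference. In the mutant the response was 0.91 ± 0.25 and was not called. It was called there with DESeq2 (0.87), without the 5 libraries low in long transcripts (0.91) and without untreated control replicate 4 (0.91). On copper the mutant fell below the control by 2.08 ± 0.25, and without copper the difference was 0.31 ± 0.26. Its neighbour dod-17, whose gene starts within 1 kb of its end on the same strand, had the reverse order of the copper groups.

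The levels of dod-22 were low and scattered. The control held 11.43, 1.86, 2.63 and 2.24 CPM without copper and 9.22, 6.16, 9.43 and 9.54 CPM with it. The mutant held 1.76, 4.95, 8.80 and 2.82 CPM without copper and 7.82, 8.57, 7.57 and 10.5 CPM with it. Untreated control replicate 1 was the highest of the 16 libraries, the other 3 of its group were among the lowest, and no pair of groups was free of overlap. Differences were 0.94 ± 0.53 for copper in the control and 0.91 ± 0.50 for copper in the mutant, with 0.02 ± 0.54 and -0.01 ± 0.49 between genotypes, and none was called. The 11.43 CPM library is among the 5 low in long transcripts. In the fit without those 5, copper in the control gave 2.14, the untreated genotypes 1.22 and the interaction -1.34 in place of -0.03, again none called. Its gene ends 52 bp from F55G11.2, which faces it on the other strand, and the strand setting of the counting is not given in the sources used here. For dod-21, 0 counts in every library allow up to 3 counts each, a level of at most 0.659 to 1.68 CPM depending on the library, by counting error alone.

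Counted over the list, 0 of the 7 tested genes were called higher and 0 lower in the mutant without copper, also by unadjusted p under 0.05, by DESeq2 and by limma-voom. Of all genes tested, 9.39% were called higher and 12.5% lower in that comparison. On copper 4 were higher and 1 lower in the mutant, against 6.39% and 0.542% of all genes. Copper in the control gave 3 higher and 0 lower, against 0.46% and 1.32%, and 1 and 0 with limma-voom. Copper in the mutant gave 5 higher and 0 lower, against 1.78% and 0.46%. For the interaction, that is the response to copper in mutants less that in controls, 3 were higher (irg-5, dod-24 and dod-17) and 1 lower (F55G11.4), against 4.11% and 1.28%. Because the genes were chosen with these results known, nothing is read from these counts. Without the 5 libraries low in long transcripts they became 1 and 0, 5 and 1, 3 and 0, 6 and 0, and 4 and 1, in the same order. The shares of all genes called in that fit were larger in most comparisons. They were 11.1% higher and 6.41% lower between untreated genotypes, and 14.9% and 8.52% between genotypes on copper. For copper they were 2.37% and 2.41% in the control and 7.6% and 6.89% in the mutant, and for the interaction 5.22% and 6.95%. The shares of each fit are also the background for the edgeR calls of the other lists below. Of the 9787 genes DESeq2 called 133 higher and 307 lower for copper in the control and 314 and 118 in the mutant. For the interaction it called 644 and 387, and limma-voom called 19 and 26 for copper in the control. The share of all genes at an unadjusted p under 0.05 is not given here, so nothing is read from such counts. Comparisons that share a group of libraries are not independent of each other.

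**Figure D2:**
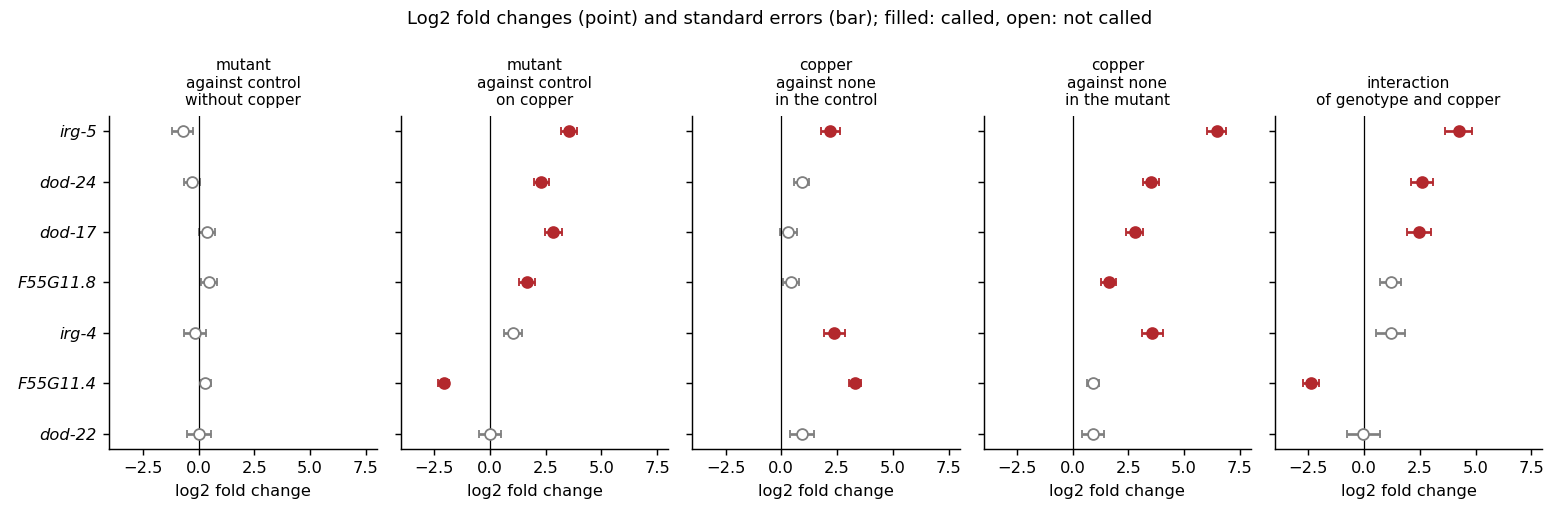
Log2 fold changes (points) with standard errors (bars) of the 7 tested genes in the 5 comparisons, on a common axis. Filled points are called at an adjusted p under 0.05 over all genes tested, open points are not. The values for F55G11.4 are -2.08 on copper between genotypes and -2.39 for the interaction, opposite in sign to those of irg-5, 3.54 and 4.25.

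The median log2 difference of the 7 genes was 0.02 between untreated genotypes, 1.66 between genotypes on copper, 0.94 for copper in the control, 2.78 for copper in the mutant and 1.19 for the interaction. Over all 9787 genes the medians ran from -0.049 to 0.085. With the 5 libraries left out the medians of the 7 genes were 0.46, 1.73, 1.72, 2.70 and 2.09. Interaction values that were called were 4.25 ± 0.60 for irg-5, 2.604 ± 0.48 for dod-24, 2.46 ± 0.52 for dod-17 and -2.39 ± 0.36 for F55G11.4. Those of irg-4 (1.19 ± 0.64), F55G11.8 (1.19 ± 0.48) and dod-22 (-0.03 ± 0.73) were not. That of F55G11.8 was called without untreated control replicate 2 (1.399) and was 0.47, not called, without the 5 libraries, and that of irg-4 was called there (2.09).

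Across the 16 libraries, which differ in depth and between groups, log2 levels of irg-5 and dod-24 had a Pearson r of 0.97, and those of dod-17 and F55G11.8 one of 0.93. The adjacent pair dod-17 and F55G11.4 had r = 0.01. After subtraction of the group means the pairs gave 0.67, 0.71 and 0.01. Within groups irg-4 ran against dod-22 (r = -0.82) and against F55G11.8 (-0.78). In untreated control replicate 1, copper control replicate 1 and copper mutant replicate 4 irg-4 was lowest and F55G11.8 highest of the group. These libraries are low in long transcripts, and dod-22 was highest in the first and last of them. Untreated mutant replicate 1, which is not low in long transcripts, had irg-4 highest and dod-22, dod-24, F55G11.4 and F55G11.8 lowest of its group. In that group irg-5 and dod-17 were lowest in replicate 4. The part of such libraries in these r was not tested. These correlations describe 16 libraries and were not tested.

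Genes on the same genomic clones as the 8 genes were listed as neighbours. This list shares dct-17 with the other CUB-like genes below and irg-6 with the other infection response genes below. Neighbours were not checked for CUB-like domains, so position and gene family cannot be told apart here. Of 67 neighbours, RNA genes included, 31 had 0 counts throughout and 11 were tested. In the mutant 5 rose with copper and 0 fell, and on copper the same number, 5 and 0, were higher and lower in mutant than in control. The median log2 differences were 1.42 and 0.99, against 0.02 and -0.04 over all genes tested. C32H11.4, which lies 13.4 kb before dod-21, stood at 36.9 ± 6.97 CPM in the mutant on copper, 5.03 ± 1.06 in the untreated mutant, 6.35 ± 1.70 in the control on copper and 3.68 ± 1.51 in the untreated control. It rose with copper in the mutant by 2.87 ± 0.29 (edgeR adjusted p = 3.77e-05) and exceeded the control on copper by 2.54 ± 0.29 (adjusted p = 0.00012). F55G11.2, next to dod-22, stood at 81.8 ± 12.9 CPM in the mutant on copper against 7.99 ± 3.65 without it and 9.67 ± 1.27 in the control on copper. Its log2 values were 3.35 ± 0.47 (edgeR adjusted p = 0.000453) for copper in the mutant and 3.08 ± 0.47 (adjusted p = 0.000755) for mutant against control on copper.

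The other neighbours called were C32H11.3, 3.72 ± 0.66 for copper in the mutant (edgeR adjusted p = 0.00444), F35E12.6, which lies 0.8 kb from irg-5, and the cuticle collagen gene col-130, 7.3 kb from irg-4. F35E12.6 stood at 214 ± 23.7 CPM in the mutant on copper and 79.8 ± 26.9 in the untreated mutant. In the control it stood at 112 ± 17.5 CPM on copper and 92.0 ± 27.6 without it. Whether its calls held under the alternatives was not examined. In mutant against control on copper col-130 differed by 4.87 ± 0.79 (edgeR adjusted p = 0.00136). Its presence in the list follows from the clone alone, and cuticle genes as a group are given with the markers. For copper in the control, 0 of the 11 neighbours were called by edgeR, 5 higher and 1 lower had an unadjusted p under 0.05, and DESeq2 called 1 higher and 1 lower while limma-voom called 0. In the untreated genotypes 1 was higher, F35E12.10 (1.88 ± 0.46, edgeR adjusted p = 0.0149), which moved to 0.94 without the 5 libraries low in long transcripts. Without these libraries 7 neighbours rose with copper in the mutant and 8 were higher in the mutant on copper. For the interaction 3 were higher and 0 lower, or 3 and 1 without these libraries and 4 and 1 with DESeq2. No neighbour was called lower in the mutant on copper, the direction of F55G11.4.

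**Figure D3:**
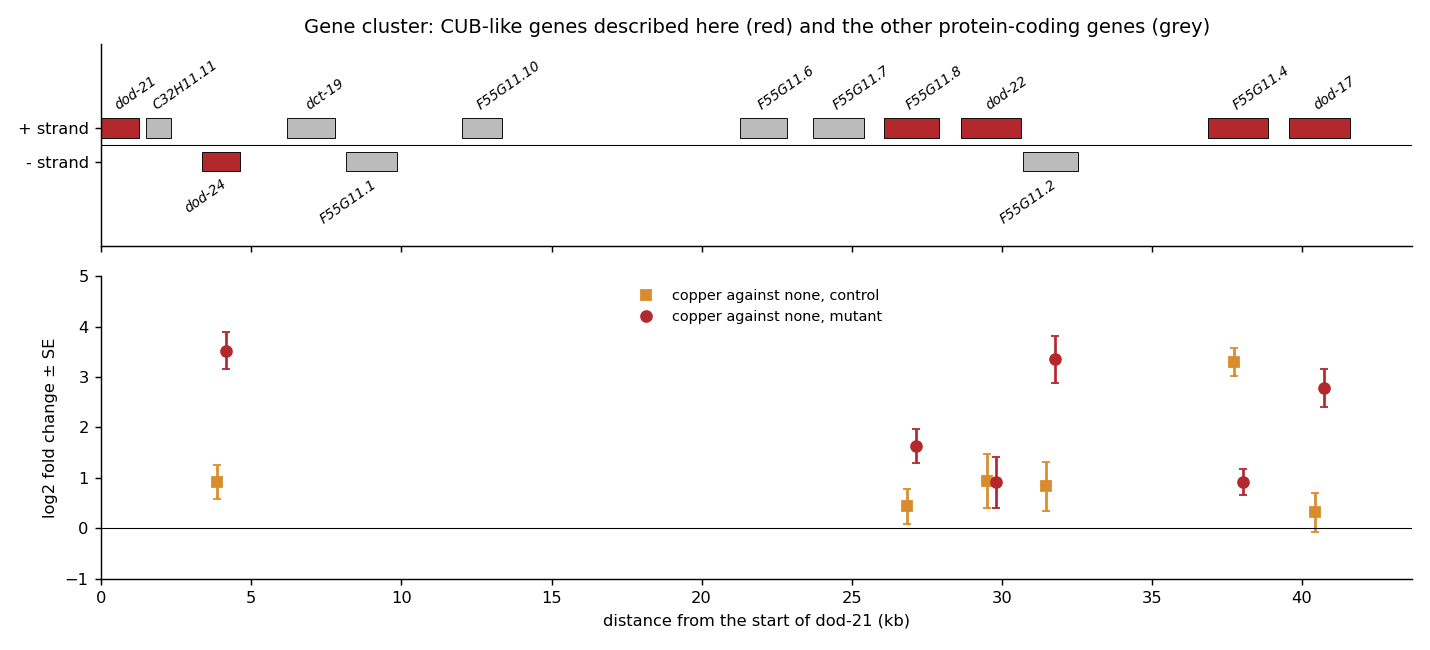
The stretch of 41.6 kb with its 13 protein-coding genes (upper panel, to scale, plus strand above the line) and the log2 copper responses of the genes tested there (lower panel, points with standard errors), against distance in kb from the start of dod-21. In the mutant (circles) dod-24, F55G11.2 and dod-17 stand at 3.53, 3.35 and 2.78, while F55G11.4 stands at 0.91 in the mutant and 3.30 in the control (squares).

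A further list held 9 genes taken to be CUB-like from general knowledge, since no gene descriptions were at hand. The list is not complete and was not checked against protein sequence. Of the 9, 8 were tested and F20G2.5 had 0 counts. Copper in the mutant raised 1 and lowered 0, mutant against control on copper gave 1 and 0, copper in the control 2 and 0, the untreated genotypes 2 and 0 and the interaction 1 and 0. The medians were 1.07, 0.86, 0.82, 0.62 and 0.61 in that order. C17H12.6 rose with copper in the mutant by 3.72 ± 0.74 (edgeR adjusted p = 0.00962), from 0.476 ± 0.567 CPM to 6.69 ± 2.08. On copper it was higher in mutant than in control by 3.65 ± 0.78 (edgeR adjusted p = 0.00775). C17H12.8 rose with copper in the control by 1.89 ± 0.38 (edgeR adjusted p = 0.0159), a call lost without copper control replicate 3, without replicate 4, in a fit to the 8 libraries of that comparison alone and without the 5 libraries (1.36). The call of B0024.4 in the control (3.33 ± 0.81, edgeR adjusted p = 0.0432) was lost in 14 of the alternatives, with an adjusted p between 0.00574 and 0.192 and a log2 value between 2.81 and 7.36, the latter without the 5 libraries. When the 5 libraries were left out 6 of the 8 rose with copper in the mutant and 4 were higher in the mutant on copper, none lower. The interaction then gave 1 and 1, with a median of 0.22. DESeq2 called 2 and 0 for copper in the mutant, 3 and 1 in the untreated genotypes and 1 and 1 for the interaction, and limma-voom 1 and 0 in the untreated genotypes and 1 and 0 for copper in the control.

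A list of 16 other infection response genes, among them lysozymes, C-type lectins and antimicrobial peptide genes, had 10 genes tested. Copper in the mutant raised 4 and lowered 0, copper in the control raised 2 and lowered 2, and on copper 3 were higher and 2 lower in the mutant. The interaction gave 3 and 1, and the untreated genotypes 0 and 3. Median log2 differences were 1.58, 0.05, 0.62, 1.25 and -0.72 in that order. The lysozyme gene lys-2 stood at 608.5 ± 116 CPM in the mutant on copper against 89.1 ± 35.1 without it, and rose by 2.77 ± 0.34 (edgeR adjusted p = 0.000178). The lysozyme gene lys-7, like F55G11.4, was highest in the control on copper, with 219 ± 24.7 CPM there, 45.2 ± 19.2 in untreated controls, 30.4 ± 3.73 in untreated mutants and 26.9 ± 8.35 in mutants on copper. It rose with copper in the control by 2.28 ± 0.29 (edgeR adjusted p = 0.000472) and was lower in the mutant on copper by -3.03 ± 0.30 (adjusted p = 2.99e-05). T24B8.5, a reporter gene of the p38 pathway, rose in both genotypes, by 4.71 ± 0.43 in the control (edgeR adjusted p = 1.76e-05) and by 3.19 ± 0.41 in the mutant (adjusted p = 0.00032). On copper it was lower in the mutant than in the control by -2.42 (edgeR adjusted p = 0.000922), the direction of F55G11.4. Its levels there were 29.0 ± 6.48 CPM in the mutant and 155 ± 43.6 CPM in the control. The caenacin gene cnc-4, an antimicrobial peptide gene, fell with copper in the control by 2.84 ± 0.44 (edgeR adjusted p = 0.00326) and rose in the mutant by 3.06 ± 0.43 (adjusted p = 0.000545). The fall in the control lost its call in a fit to the 8 libraries of that comparison alone (adjusted p between 1e-06 and 0.0765 over the alternatives). Leaving out the 5 libraries gave 5 and 0 for copper in the mutant, 2 and 1 for copper in the control, 4 and 2 on copper, 1 and 2 for the interaction and 0 and 1 in the untreated genotypes. The medians were then 1.33, 0.60, 0.49, 0.61 and 0.19, the last of them opposite in sign to the median over all 16 libraries. The response of T24B8.5 in the control was 5.70 in that fit.

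**Figure D4:**
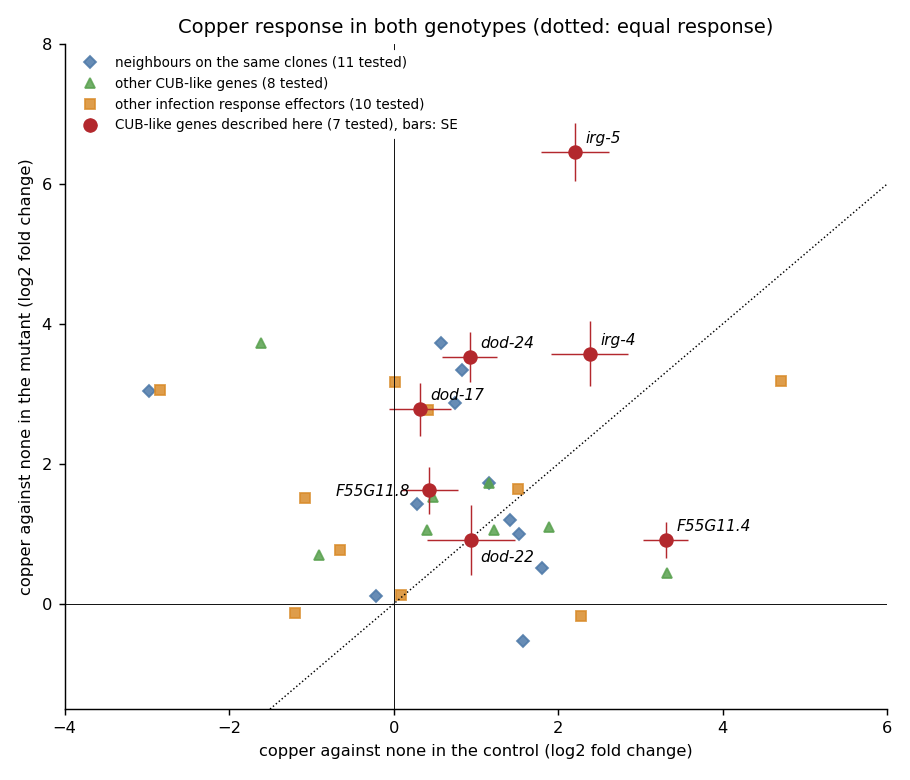
Log2 copper response in the control (horizontal axis) and in the mutant (vertical axis) of the 7 tested CUB-like genes (circles, bars are standard errors) and of 3 lists of other genes. Each point is 1 gene and the dotted line marks equal response. F55G11.4 (3.30 and 0.91) lies below the line, dod-22 (0.94 and 0.91) near it and the other 5 above it.

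Among the other 6 dod genes 5 were tested. Of these, dod-23 rose with copper in the mutant by 2.11 ± 0.28 (edgeR adjusted p = 0.000354), and with 1 higher and 0 lower it was alone in that comparison. It was lower in the untreated mutant by -1.72 ± 0.28 (edgeR adjusted p = 0.00183), where 2 of the list were higher and 2 lower. That value was -0.91 without the 5 libraries. On copper dod-23 and dod-19 were higher in the mutant, 2 and 0, by 1.05 ± 0.27 and 0.94 ± 0.25 (edgeR adjusted p = 0.0239 and 0.026). Both calls depended on the libraries, since that of dod-23 was lost without copper control replicate 2, 3 or 4 or copper mutant replicate 4, and that of dod-19 without 6 of the libraries left out in turn and with the replicate number as a block (adjusted p between 0.00437 and 0.0917). With the 5 libraries left out 3 were higher and 1 lower on copper. The interaction gave 1 and 0, and copper in the control 0 and 0 by edgeR and by limma-voom, with 2 and 1 at an unadjusted p under 0.05 and 1 and 0 by DESeq2. Medians of the 5 genes ran from -0.29 in the interaction to 0.64 between genotypes on copper, and without the 5 libraries the interaction gave 1 and 1 with a median of 0.32.

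The 20 immune regulators, which include the kinases and transcription factors of the p38, insulin and intestinal GATA pathways, were all tested, and 2 of them, elt-2 and elt-7, also serve as intestinal markers here. Their median log2 differences ran from -0.13 to 0.21 over the comparisons. By edgeR 0 were called with copper in either genotype or between genotypes on copper. At an unadjusted p under 0.05 the counts were 0 higher and 4 lower for copper in the control, 5 and 0 for copper in the mutant and 3 and 1 between genotypes on copper. The share of all genes at that threshold is not given here. DESeq2 called 0 and 0, 3 and 0, and 0 and 1 in these comparisons, and limma-voom 0 and 0, 0 and 0, and 1 and 0. In the untreated genotypes 4 were lower and 0 higher, against 12.5% and 9.39% of all genes tested. There zip-2, a transcription factor gene of the infection response, was lower in the mutant by -1.33 ± 0.29 (edgeR adjusted p = 0.00863). The interaction gave 2 higher and 0 lower, with zip-2 at 1.85 ± 0.40 (edgeR adjusted p = 0.0112), from 34.0 ± 3.13 to 68.9 ± 10.1 CPM in the mutant and from 85.7 ± 37.9 to 48.1 ± 13.7 CPM in the control. The other interaction call, hlh-30 (1.35 ± 0.35, edgeR adjusted p = 0.0308), was lost in 12 of the alternatives, with an adjusted p between 0.00307 and 0.0809. When the 5 libraries were left out 6 regulators rose with copper in the mutant, and 5 were higher and 1 lower in the mutant on copper. For the interaction 6 were then higher and 0 lower, with a median of 0.29 in place of -0.13, and DESeq2 called 4 and 0.

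In whole-worm RNA, fewer cells of a type and less RNA per cell cannot be told apart. All 10 intestinal markers were detected and tested. Their summed level ran from 3883 to 14854 CPM in the untreated control, 2971 to 5695 in the control on copper, 3058 to 3632 in the untreated mutant and 4225 to 8205 in the mutant on copper. Most of this sum came from asp-1, with a mean of 7127 of 8264 CPM in the untreated control and 4260 of 5513 in the mutant on copper. With copper in the mutant 1 of the 10 rose and 0 fell, and on copper 2 were higher and 0 lower in the mutant. Without the 5 libraries these became 4 and 1 and 5 and 0, and with DESeq2 the former was 2 and 0. The interaction gave 3 and 0, or 5 and 2 without the 5 libraries. Summed yolk markers (5 genes, none at 0) ran from 1750 to 7648 CPM in the mutant on copper and from 20325 to 22183 CPM in the control on copper, where all 5 were lower in the mutant. With copper in the mutant vit-3, vit-4 and vit-5 fell (median of the 5 genes -2.01), and they were also lower for the interaction (median -2.37). All 5 were lower in both when the 5 libraries were left out. Cuticle markers (6 genes, none at 0) were higher in 3 and lower in 0 on copper, with sums of 2958 to 4732 CPM in the mutant and 1759 to 3267 CPM in the control. Most of these sums came from col-19, with means of 3255 and 2312 CPM, which was not called there. For the interaction dpy-13 and col-10 were higher (6.73 ± 1.07 and 2.15 ± 0.57), and 0 cuticle markers were called for copper in the mutant by edgeR (2 higher at an unadjusted p under 0.05), 1 higher by DESeq2 and by limma-voom, and 2 higher without the 5 libraries. With copper in the control 1 cuticle marker, dpy-13, fell by 4.38 ± 0.83 and 0 rose. The response of dpy-13 in the mutant, 2.35 ± 0.68, was not called. For col-10 the copper responses were -0.88 ± 0.41 in the control and 1.27 ± 0.40 in the mutant, neither called. On copper 4 sperm markers (6 genes, none at 0) were higher and 0 lower in the mutant than in the control, with sums of 231 to 460 against 83.4 to 121 CPM. For copper in the mutant 0 sperm markers were called by edgeR, by DESeq2 or by limma-voom or had an unadjusted p under 0.05, and 3 were lower without the 5 libraries. Without copper 2 sperm markers were higher and 0 lower in the mutant, with sums of 297 to 317 against 85.6 to 240 CPM. The median log2 difference of the 6 was 0.67 there, and 1.80 without the 5 libraries. On copper these marker shifts went along with the differences of the CUB-like genes between genotypes. That of sperm was also present without copper, where 0 of the 7 CUB-like genes were called in the fit to all 16 libraries. Other markers were called there too. Of the 10 intestinal markers, pho-1 and pept-1 were higher and asp-1 and elt-7 lower in the untreated mutant. Of 3 pharynx markers 2 were higher, of 5 neuron markers 2 were higher and 1 lower, and of 6 germline markers 1 was lower. Some yolk, cuticle and intestinal markers were called for copper in the mutant or for the interaction. The part of the marker shifts in the CUB-like differences was not tested.

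The genes with patterns most like the mean of the 7 genes over the 16 libraries were the C-type lectin gene clec-45 (Pearson r = 0.95), lys-2 (0.91), the glutathione S-transferase gene gst-35 (0.91), C32H11.4 (0.91) and the transcription factor gene zip-10 (0.90). The level of clec-45 was 32.3 ± 5.68 CPM in the mutant on copper, 11.9 ± 1.21 in the control on copper and 0.166 ± 0.211 in the untreated mutant. Closest to irg-5 were gst-35 (0.94), F19H6.5 (0.93), C32H11.4 (0.93), lys-2 (0.93) and T28A11.2 (0.93). Outside the mutant on copper gst-35 had group means of 0 to 0.63 CPM and F19H6.5 of 0.17 to 0.86 CPM, near the floor of 3 counts. Their means in the mutant on copper were 9.18 and 20.6 CPM. Closest to F55G11.4, looked up after its values were seen, were C14C6.5 (0.94), clec-41 (0.93), oac-20 (0.91), Y55F3AM.11 (0.91) and T24B8.5 (0.91). C14C6.5 stood at 208 ± 35.3 CPM in the control on copper and 49.7 ± 5.91 in the mutant on copper, against 34.3 ± 11.1 in controls and 30.9 ± 4.85 in mutants without copper. Its libraries in the mutant did not overlap, at 42.3 to 56.7 CPM with copper and 24.6 to 35.8 without. The libraries share group differences that many genes follow, so these values rank likeness and were not tested.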

How the data were processed

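Total RNA of whole worms was sequenced as 3′ digital mRNA libraries with single reads, per the labels' protocols. Whole-number counts of reads per gene were deposited, with no normalisation by the authors. The build was ce11, per the submitters' processing notes, which also list HTSeq, STAR 2.6.0a and bcl2fastq. The annotation release and strand setting are not given in the sources used here. All 16 columns were matched to samples by title, and 0 columns had no sample. Positions came from Ensembl's annotation of WBcel235, and symbols from RefSeq.

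Counts were fitted with edgeR 4.0.16 (limma 3.58.1, R 4.3.3) using TMM factors, filterByExpr, 1 mean per group over 16 libraries (12 residual degrees of freedom) and the quasi-likelihood test with robust estimation, checked on simulated data. Adjusted p refers to this fit. Total counts per library ran from 1891008 to 4001750, and 99.45% to 99.78% of them fell in the genes tested. The labels call the libraries biological replicates. Libraries of 1 group differed by more than sampling noise (chi-square per degree of freedom 2.75 to 71.8). Floors of 3 counts cover counting error only.

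Members and lists were chosen with earlier results of these data known. Named outside the members were up to 3 genes per list with the smallest adjusted p in the comparison discussed and the 5 genes best correlated (log2 CPM, prior count 2) with the members' mean and with irg-5. Those for F55G11.4, and any other list gene named with its values (col-130, F35E12.6, F35E12.10, F20G2.5), were added after values were seen or follow from that rule in another comparison. Libraries low in long transcripts had a median log2 CPM of genes over 3000 bp minus that of genes under 800 bp below -0.5. Alternatives were DESeq2 size factors, upper-quartile factors, 2 other filters, DESeq2 1.42.0, limma-voom, fits to each comparison's libraries, the replicate number as a block, length offsets (lowess span 0.3), and leaving out those 5 libraries or each of the 16. For the list genes these were chosen after seeing the data. Promoter and protein sequences were not analysed here.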

Additional observations from a re-analysis of the deposited data

Results flagged for a closer look

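In dod-22, copper control replicate 2 lay below the rest of its group, with 6.16 CPM against 9.22 to 9.54 CPM. Its gap to the nearest library took 0.921 of the group's range on the log2 scale, above Dixon's 95% critical value for 4 libraries. Of 28 groups of values checked, 1 passed this value, and chance gives about 1 in 20.

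Copper responses differed between genotypes by the interaction test of edgeR for 4 genes whose results were known when they were chosen. The mutant's response minus the control's was 4.25 for irg-5, 2.46 for dod-17, 2.604 for dod-24 and -2.39 for F55G11.4 on the log2 scale. The difference for irg-5 starts from 18 counts in the untreated mutant group. Leaving out any library kept these between 3.93 and 4.71, 2.24 and 2.96, 2.36 and 2.97, and -2.61 and -2.21.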

How the results depend on the processing

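Of 903 values of the 7 tested genes under the alternatives, 863 kept their direction and their side of the threshold, 7 lost a call, 8 gained 1 and 25 turned in sign, none of them called. The cause of these changes was not tested. Members called went from 0 to 1 between untreated genotypes without the 5 libraries low in long transcripts. For copper in the control they went from 3 to 1 with limma-voom and to 1 in a fit to that comparison's libraries.

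Turned in sign were irg-4 between untreated genotypes with limma-voom (0.015), dod-22 on copper with upper-quartile factors (0.092), the stricter filter (0.018) and the replicate block (0.024), dod-22 in the interaction with upper-quartile factors (0.063), and dod-17 for copper in the control without the 5 libraries (-0.12). Of the list genes, spp-1 between untreated genotypes turned from -1.12 to 0.098 without the 5. Of 1130 values of list genes, 1038 kept the call. With 1 library left out, ranges were -0.50 to 0.31 for irg-4 between untreated genotypes, -0.21 to 0.53 for dod-17 with copper in the control, and for dod-22 -0.49 to 1.02 between untreated genotypes, -0.14 to 0.042 on copper and -1.04 to 0.47 in the interaction.

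Genes called between untreated genotypes were 2141, 1419 with the replicate block and 734 to 3840 with 1 library left out (3840 without untreated control replicate 2). On copper they were 678, 2288 without the 5 and 434 to 840. For copper in the control they were 174, 440 with DESeq2, 45 with limma-voom, 13 with its own libraries, 64 with the replicate block, 468 without the 5 and 44 to 849. For copper in the mutant they were 219, 432 with DESeq2, 473 with its own libraries, 1418 without the 5 and 115 to 334. For the interaction they were 527, 1031 with DESeq2, 1191 without the 5 and 337 to 2140.

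Same-numbered libraries showed no common direction of deviation (24 pairs, r from -0.60 to 0.55, median -0.04, 6 over 0.1). Deviations were taken from means of 4 libraries, some of them low in long transcripts. The check therefore cannot settle whether the numbers pair the libraries. With the replicate block no member's call changed. Length offsets shifted the median of all genes by -0.10 between untreated genotypes and lowered the share of calls that were higher on copper from 92.2% to 81.5%. At these depths dod-21 could not be measured and dod-22 and untreated irg-5 rest on few counts.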
